A study of Mus musculus with 44 samples.

Results

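Cdx1 and Cdx2 are a pair of homeobox genes of the caudal family, and their rows were taken by symbol from the gene table of the mouse organoid RNA-seq libraries, where they are 2 of 19733 genes. Their reads were followed in all 20 RNA-seq libraries of a series of 44 samples. Organoids are epithelial cultures grown from stem cells in a gel, and all came from C57BL/6 mice per the labels. The libraries form separate experiments that were fitted apart.

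The first experiment, called the lines here, has 11 libraries. Gastric organoids were transduced with lentivirus carrying CDX2, HNF4A or GFP, and 3 numbered lines of each were sequenced. GFP, a fluorescent protein, serves as the control cargo. Small intestine organoids without a named vector, 2 lines, give an intestinal reference. For the transduced lines the labels disagree on the tissue: the titles and the tissue tag say gastric, another field says small intestine, and the former were followed. Marker lists of both tissues were read. A list of 9 gastric epithelium genes summed to 2291 to 8161 CPM in GFP lines, mostly Muc6, and 937 to 5281 CPM in HNF4A lines. It summed to 86.7 to 1414 CPM in CDX2 lines and 0.931 to 10.1 CPM in small intestine organoids. A list of 9 small intestine epithelium genes did not part the groups. It summed to 115 to 250 CPM in GFP lines, mostly Reg3g, and 195 to 1225 CPM in small intestine. In CDX2 lines its sum was 280 to 492 CPM and in HNF4A lines 463 to 836 CPM. CPM is the usual count of reads scaled to the size of the library, here with TMM factors. No source used here names the species of the CDX2 and HNF4A sequences in the vectors. Vector reads and reads of the resident Cdx2 or Hnf4a therefore cannot be told apart.

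The second experiment has 9 libraries of organoids from the stomach antrum, all of which overexpress HNF4A, wild type (WT), heterozygous (HET) or homozygous (HOM) included. The groups, 3 libraries each, have lost 0, 1 or 2 copies of an enhancer downstream (3′) of Cdx2, deleted in the germline by CRISPR. No group without HNF4A overexpression stands beside them. Whether replicates came from separate animals or cultures is not given beyond their numbers, so the p-values measure the spread between these libraries. That spread exceeded counting error (chi-square per degree of freedom of 21.7 to 84.1 between replicates), and how much of it is technical is not known. WT replicate 3 differed from the other WT replicates in reads of a Y-chromosome gene, given below.

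Cdx1, Cdx2 and Cdx4 encode transcription factors that bind AT-rich DNA through a homeodomain. In the embryo they help to pattern the posterior body. In the adult gut Cdx2 is the defining factor of the intestinal epithelium and Cdx1 overlaps with it, while normal stomach epithelium is known to lack both. When CDX2 appears in gastric cells it is a hallmark of intestinal metaplasia, the replacement of stomach by intestine-like epithelium. HNF4A is a nuclear receptor of the gut and liver that works beside CDX2 at intestinal enhancers. Cdx2 belongs to the ParaHox cluster with Pdx1 and Gsx1, and Cdx1 to a cluster remnant elsewhere.

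In GRCm38.p6, Cdx2 lies on chromosome 5 at 147300900 to 147307249, on the minus strand, next to Pdx1 at 147270097 to 147275848 and Gsx1 at 147188696 to 147190947. The 250 bases before the start of Cdx2 are shown because they are the promoter region of the gene whose enhancer was deleted. They run 5′ to 3′ on the strand of the gene and are taken from RefSeq, at chr5:147307250-147307499 of GRCm38.p6.
Cdx2 upstream: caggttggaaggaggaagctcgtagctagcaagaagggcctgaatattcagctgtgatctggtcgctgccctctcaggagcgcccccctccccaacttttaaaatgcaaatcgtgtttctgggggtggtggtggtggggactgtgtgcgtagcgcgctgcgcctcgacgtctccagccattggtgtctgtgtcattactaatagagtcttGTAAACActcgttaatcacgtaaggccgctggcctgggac
Capitals mark a match to the forkhead motif TGTTTAC on the opposite strand, 40 to 34 bases before the start. Of 32851 windows of this length before RefSeq starts, 3.17% held these letters on either strand. The CDX letters TTTAT, in 37.3% of windows, the HNF4 letters CAAAG, in 48.6%, and the GATA letters AGATAA, in 9.99%, had no match here on either strand. The motifs were chosen after the sequence was seen, and a match describes letters only.

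Libraries of the lines totalled 6180498 to 11007809 reads, and those of the enhancer experiment 8173640 to 11465309. In a library, 3 reads correspond to 0.256 to 0.473 CPM. Both genes passed the filter on low counts in both experiments, with 12720 and 12593 genes tested. All 8 genes of an epithelium list (Epcam, Cdh1, Krt8, Krt18, Krt19, Cldn7, Cldn4 and Elf3) were detected in all 20 libraries, with a summed level of 7776 to 16585 CPM in the lines and 4379 to 11557 CPM in the enhancer experiment.

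Cdx2 was read in every library, and from low to high its means stood in the order GFP lines, HNF4A lines, CDX2 lines and small intestine, and HOM, HET and WT. Mean levels were 4.86 ± 2.27 CPM (SD, n = 3) in GFP lines, 34.1 ± 14.7 (n = 3) in HNF4A lines, 183 ± 114 (n = 3) in CDX2 lines and 277 ± 6.90 (n = 2) in small intestine. Among these neighbours in order, the CDX2 lines and small intestine overlapped, and the other neighbours did not. In the enhancer experiment the means were 0.716 ± 0.594 CPM in HOM, 11.1 ± 6.63 in HET and 34.0 ± 21.8 in WT (n = 3 each), and HET overlapped WT.

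Cdx1 was listed at 0 reads in all 3 GFP lines and was read in the other 17 libraries. Its means were 2.94 ± 3.03 CPM (n = 3) in HNF4A lines, 11.6 ± 11 (n = 3) in CDX2 lines and 126 ± 67.3 (n = 2) in small intestine. HNF4A and CDX2 lines overlapped, and small intestine lay above both. In the enhancer experiment the means were 0.611 ± 0.339 CPM in HOM, 2.33 ± 0.426 in HET and 5.85 ± 4.79 in WT (n = 3 each), with overlap between HET and WT. Levels of the 2 genes are not compared with each other, since no transcript length is used here.

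**Figure D1:**
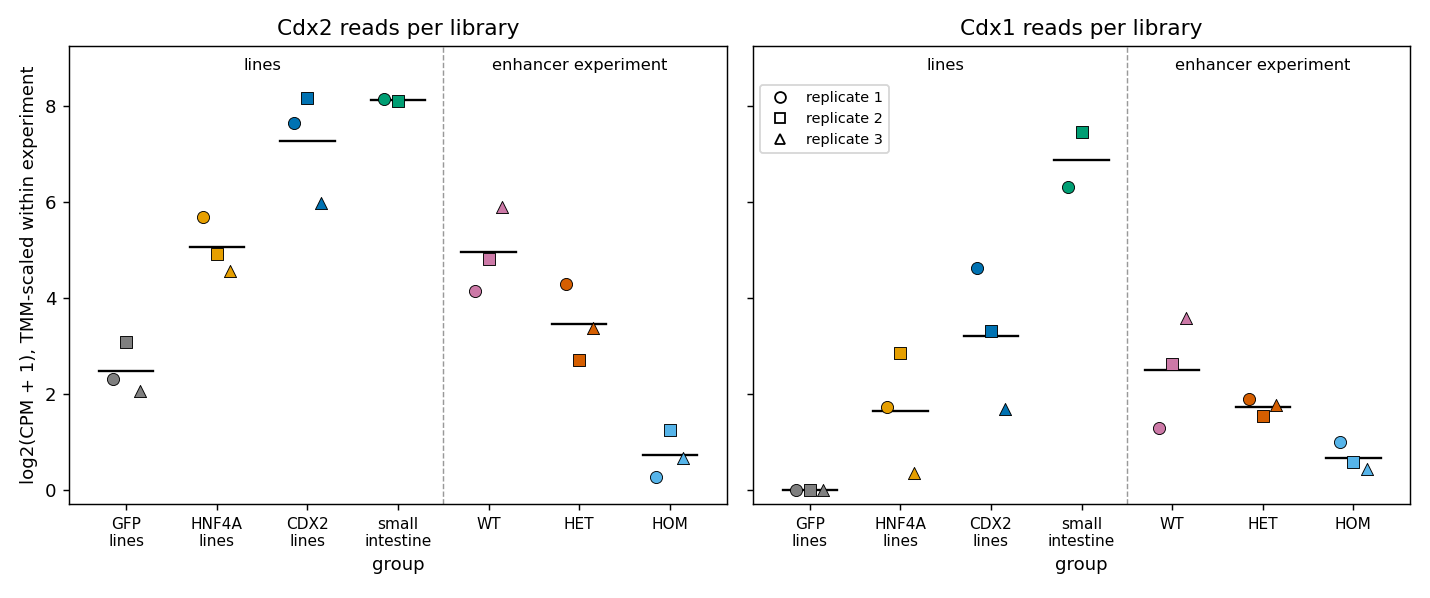
Reads of Cdx2 (left) and Cdx1 (right) in each library as log2(CPM + 1), by group; points are libraries, shaped by replicate number, bars are group means of the plotted values, and the dashed line parts the 2 experiments. The 3 HOM libraries sit below all HET and WT libraries for both genes, and Cdx1 is at 0 in the 3 GFP lines.

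The CDX2 lines check the vector: all had more Cdx2 reads than any GFP line. By CPM, 8.23% of tested genes lay above all GFP lines in this way. The counts were 1988, 2384 and 393 reads in CDX2 lines 1 to 3, or 199.9 CPM, 288 CPM and 62.0 CPM, against 37, 70 and 26 reads in GFP lines, or 3.95, 7.44 and 3.19 CPM. Line 3 was the lowest of its group in both. Cdx2 rose by 5.23 ± 0.61 on the log2 scale (SE; edgeR adjusted p = 0.00853), a comparison in which 0.338% of tested genes were called higher. The adjusted p was 0.103 with limma-voom, 0.0564 when only these 2 groups were fitted, 0.0813 without GFP line 1 and 0.0532 without GFP line 3, with log2 fold changes of 5.00 to 5.23. How much of the difference is resident Cdx2 cannot be told apart from the vector.

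Line by line, the ratio of Cdx2 CPM between CDX2 and GFP lines was 50.6 in line 1, 38.7 in line 2 and 19.5 in line 3. Mean Cdx2 in CDX2 lines was 66.1% of the small intestine mean. Small intestine exceeded the CDX2 lines by 0.60 ± 0.55 on the log2 scale, which did not pass (edgeR adjusted p = 0.502), and CDX2 line 2 lay above both small intestine libraries, at 282 and 272 CPM.

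Cdx1, which carries no vector in any group per the labels, was read in all 3 CDX2 lines: 236, 74 and 14 reads, or 23.7, 8.93 and 2.21 CPM, against 0, 0 and 0 reads in GFP lines. All CDX2 lines thus lay above all GFP lines, as did 8.23% of tested genes. With 0 reads in GFP lines, Cdx1 passed the filter through other groups and could not fall against GFP lines. Any read puts a library above them, and the same holds for HNF4A lines and small intestine against GFP lines. Against a floor of 3 reads over the GFP group the level was at least 118-fold higher, or at least 54.0-fold without CDX2 line 1. Without GFP line 1 or 2, which leaves the floor on fewer reads, it was at least 77.2- and 77.1-fold. The edgeR test did not pass (adjusted p = 0.1). It passed with line number as a block (adjusted p = 0.024, 2.59% of genes called higher) and with DESeq2 (1.65e-05, 2.74% called higher). Line numbers paired the gastric libraries: their deviations from group means correlated from 0.363 to 0.785 across genes. The block covered all 11 libraries, although small intestine numbers did not pair with the gastric ones (-0.144 to 0.121).

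The line with the most Cdx2 was not the line with the most Cdx1. Among CDX2 lines, line 2 had the highest Cdx2 and line 1 the highest Cdx1. Among HNF4A lines, line 1 had the highest Cdx2 and line 2 the highest Cdx1. Line 3 was lowest for Cdx2 in each gastric group and for Cdx1 in both groups that had reads of it.

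Squamous and gastric marker sums were also read, and 0 of 3 tested squamous and 0 of 9 gastric genes passed edgeR (0.409% of all genes called). The squamous list (5 genes, all detected in each CDX2 line) summed to 67.4 to 722 CPM in CDX2 lines. In GFP lines it summed to 11.8 to 126 CPM, which overlapped, with 2 to 4 genes detected, and in small intestine to 137 to 411 CPM. Krt4 carried nearly all of it in CDX2 lines, at 715, 221 and 65.8 CPM, and Trp63 had 1 read in line 3. The gastric list summed to 86.7 to 1414 CPM in CDX2 lines, 8 or 9 of its 9 genes being detected, below every GFP line. Their part in the Cdx1 and Cdx2 values was not tested.

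In HNF4A lines, where the vector carries no CDX2 per the labels, Cdx2 stood at 436, 257 and 166 reads, or 50.7, 29.1 and 22.6 CPM. Every HNF4A line lay above every GFP line, as did 6.69% of tested genes. The ratio to the GFP line of the same number was 12.8, 3.91 and 7.09. The log2 fold change was 2.80 ± 0.56, which did not pass in edgeR (adjusted p = 0.113; 0.142% of genes were called higher). It passed with line number as a block (2.86, adjusted p = 0.026; 0.723% called higher), with DESeq2 (adjusted p = 3e-05; 1.55% called higher) and after scaling to the epithelium markers (2.33, adjusted p = 0.0308; 0.33% called higher).

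Cdx1 in HNF4A lines stood at 20, 55 and 2 reads, or 2.32, 6.23 and 0.272 CPM, at least 27.9-fold above the GFP floor, and at least 12.4-fold without line 2. Without GFP line 1 or 2 the bound was 18.2-fold. Line 3, at 2 reads, was under the 3 reads that a count of 0 allows. The edgeR test did not pass with or without the block (adjusted p = 0.15 and 0.448), and DESeq2's did (0.00335).

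Hnf4a itself, the check of that vector, had 502, 399 and 289 CPM in HNF4A lines 1 to 3 and 158, 132 and 95.7 CPM in GFP lines. Every HNF4A line was higher than every GFP line, which held for 6.69% of tested genes. The difference was 1.63 ± 0.36 on the log2 scale (edgeR adjusted p = 0.166, and 0.0268 with the block). In CDX2 lines Hnf4a stood at 441, 197 and 186 CPM, a difference from GFP lines of 1.09 ± 0.36 (adjusted p = 0.259, and 0.0452 with the block).

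HNF4A lines reached 12.3% of the small intestine mean for Cdx2 and 2.33% for Cdx1. CDX2 lines reached 9.22% for Cdx1. The Cdx1 shares rest on single libraries. Without HNF4A line 2 the first was 1.03%, without CDX2 line 1 the second was 4.42%, and without small intestine library 2 they were 3.75% and 14.8%. Between CDX2 and HNF4A lines, Cdx2 differed by 2.42 ± 0.53, and every CDX2 line lay above every HNF4A line, as did 4.1% of tested genes. This did not pass in edgeR (adjusted p = 0.276; 0.0157% called higher) or with a block over all 11 libraries (0.0566), and it passed with DESeq2 (0.000882; 0.487% called higher) and with a block over the 9 gastric libraries (2.24, adjusted p = 0.0402). Cdx1 differed by 1.97 ± 0.99 between these groups, with overlapping libraries (adjusted p = 1).

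**Figure D2:**
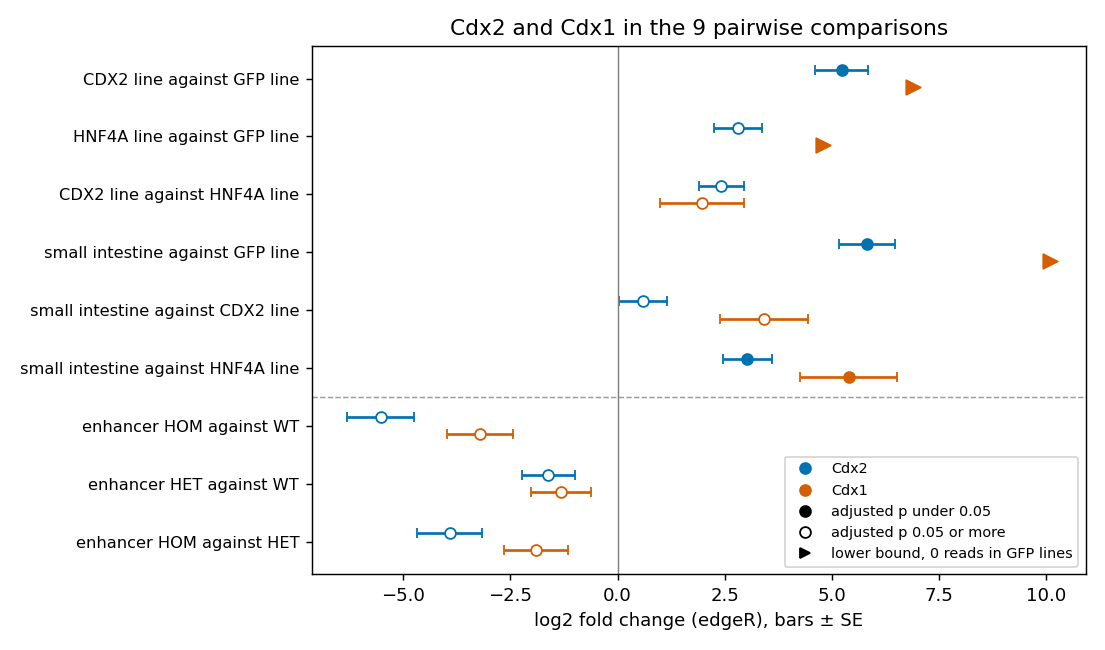
Log2 fold changes from edgeR with SE bars for Cdx2 (blue) and Cdx1 (orange) in the 9 pairwise comparisons; filled points have an adjusted p under 0.05, and triangles are lower bounds where GFP lines had 0 reads. Filled circles stand only in the lines: Cdx2 in CDX2 against GFP lines, and in small intestine against GFP lines and, with Cdx1, against HNF4A lines. The fill of the triangles does not encode a test.

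Small intestine organoids set the intestinal level of both genes. Cdx2 had 3028 and 2481 reads, or 282 and 272 CPM, 2 libraries that lay close together. It exceeded GFP lines by 5.82 ± 0.65 on the log2 scale (edgeR adjusted p = 0.000781), where 14.2% of tested genes were called higher, and HNF4A lines by 3.02 ± 0.57 (adjusted p = 0.0155; 5.83% called higher). The second call was lost without HNF4A line 2 (0.0615) or small intestine library 1 (0.0817).

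Cdx1 had 842 and 1582 reads in small intestine, or 78.4 and 174 CPM, above every gastric line. Of all tested genes, 30.4% lay above all GFP lines in this way, 24.2% above all CDX2 lines and 25.5% above all HNF4A lines. It was at least 1097-fold above the GFP floor (edgeR adjusted p = 0.00403), and at least 704-fold without small intestine library 2. Without GFP line 1 or 2 the bound was 715- or 714-fold. It exceeded HNF4A lines by 5.39 ± 1.12 (adjusted p = 0.0251), a call that was lost when any 1 library of either group was left out (adjusted p from 0.0534 to 0.0977). It exceeded CDX2 lines by 3.42 ± 1.02, just short of the threshold (adjusted p = 0.0676; 5.63% called higher). That difference passed with limma-voom (0.0187; 6.23% called higher).

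In bulk RNA, fewer cells that express a gene and less RNA per cell cannot be told apart. This holds for all differences here, the enhancer experiment included.

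In the enhancer experiment, Cdx2 was lowest in the organoids with both copies deleted. WT libraries had 186, 223 and 460 reads, or 16.7, 26.8 and 58.5 CPM. HET libraries had 176, 65 and 82 reads, or 18.4, 5.55 and 9.31 CPM. HOM libraries had 2, 14 and 5 reads, or 0.199, 1.36 and 0.585 CPM. The HOM libraries lay below all others, which held for 0.286% of tested genes. HET replicates 2 and 3 lay below all WT libraries, and HET replicate 1 lay within the WT range.

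Mean Cdx2 was 32.6% of WT in HET and 2.10% of WT in HOM. Without WT replicate 3 these shares were 51.0% and 3.29%, and without HOM replicate 2 the HOM share was 1.15%. The difference between HOM and WT was -5.53 ± 0.79 on the log2 scale. No gene passed edgeR's adjusted threshold in this comparison (0%; 578 genes, or 4.59%, had one under 0.05 before adjustment, and limma-voom called 0 genes), and Cdx2 had an adjusted p of 0.377. DESeq2 called 32 genes lower, or 0.254%, among them Cdx2 at -5.55 (adjusted p = 8.75e-11). With libraries scaled to the epithelium markers, edgeR called 1 gene lower, 0.00794%, and that gene was Cdx2, at -4.98 ± 0.66 (adjusted p = 0.0071). This scaling moved the median of all genes by 0.49, and Cdx2 lay 5.47 below that median.

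HET differed from WT in Cdx2 by -1.62 ± 0.62, which did not pass (edgeR adjusted p = 0.511; 0% of genes called, 8.93% under 0.05 unadjusted, 0 genes with limma-voom and 2.6% with DESeq2, Cdx2 not among the latter at 0.229). HOM differed from HET by -3.91 ± 0.76 (edgeR adjusted p = 1; 0 genes called, 33 or 0.262% under 0.05 unadjusted, 0 with limma-voom). In that comparison DESeq2 called 1 gene lower, 0.00794%, and it was Cdx2 (adjusted p = 0.000476).

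Cdx1 had 16, 43 and 86 reads in WT, or 1.44, 5.17 and 10.9 CPM, 26, 22 and 21 reads in HET, or 2.72, 1.88 and 2.38 CPM, and 10, 5 and 3 reads in HOM, or 0.995, 0.487 and 0.351 CPM. The 3 HOM libraries again lay below all others, as 4.17% of tested genes did against WT and 1.16% against HET. The HET libraries lay inside the WT range, which was wider than that of the other groups. Mean Cdx1 was 39.8% of WT in HET and 10.4% of WT in HOM, and 70.4% and 18.5% without WT replicate 3.

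The HOM to WT difference in Cdx1 was -3.22 ± 0.76 (edgeR adjusted p = 0.877, DESeq2 0.00864), that between HET and WT -1.32 ± 0.69 (edgeR 0.617) and that between HOM and HET -1.90 ± 0.75 (edgeR 1). At 18 reads over the HOM group, the HOM level rests on few reads.

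Of the 12593 genes tested, 36 (0.286%) had every HOM library below every HET and WT library, and Cdx1 and Cdx2 were both among them. The log2(CPM + 1) slope per deleted copy was -2.11 for Cdx2 (two-sided exact permutation test, p = 0.00238) and -0.91 for Cdx1 (p = 0.00833). The smallest p that the 1680 divisions of these libraries allow is 0.00119. These 2 p-values are not adjusted, and the edgeR trend over all genes called none (Cdx2 -2.63 ± 0.45 per copy, adjusted p = 0.599; Cdx1 -1.60 ± 0.36, 0.999), with 251 genes (1.99%) under 0.05 unadjusted and 0 called by limma-voom. DESeq2 called 20 genes lower along the copies, 0.159%, Cdx2 (4.17e-08) and Cdx1 (0.0271) among them.

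Summed levels of fibroblast and endothelium markers were higher in HET and HOM than in WT, and other differences of the WT libraries cannot be told apart from genotype. The fibroblast list (12 genes) summed to 3.31 to 6.74 CPM in WT, with 5 to 8 genes detected. It summed to 102, 848 and 1298 CPM in HET and 37.6, 101 and 1098 CPM in HOM, with 9 to 11 genes detected. Vim, Col1a1 and Sparc carried these sums, Lum was at 0 in all 9 libraries, and Dcn did not exceed 0.602 CPM. The endothelium list (6 genes) summed to 1.27 to 2.79 CPM in WT, 5.66 to 48.5 in HET and 4.38 to 35.2 in HOM. It had 3 to 5 genes detected in WT, 5 or 6 in HET and 4 or 5 in HOM. Only 2 of the 6 passed the filter on low counts, so the sums do not describe the list as a set. An immune list (6 genes) overlapped between genotypes, at 37.3 to 93.5 CPM in WT, 31.6 to 85.9 in HET and 39.6 to 59.0 in HOM.

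The epithelium list summed to 7367 to 11557 CPM in WT, 4379 to 8352 in HET and 5052 to 7305 in HOM. Per 100000 reads of these epithelium genes, Cdx2 had 354 ± 158 reads in WT, 176 ± 70.6 in HET and 11 ± 7.96 in HOM (SD, n = 3 each). Cdx1 had 60.5 ± 40.0, 39.7 ± 12.8 and 9.20 ± 4.14 reads on the same scale. On that scale the exact permutation test gave p = 0.00357 for the Cdx2 slope and 0.0262 for Cdx1.

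Leaving out the 3 libraries highest in the fibroblast list (HET replicates 2 and 3, HOM replicate 3), chosen after the data were seen, Cdx2 in HOM against WT was -5.43 with DESeq2 (adjusted p = 2.57e-10) and -5.40 with edgeR (0.787). Cdx1 was -2.97 with DESeq2, no longer past the threshold (0.194). With that exclusion only 1 HET library remained, the one within the WT range for Cdx2, and its spread was taken from the other groups.

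WT replicate 3 stood apart from the other 8 libraries in Ddx3y, a gene of the Y chromosome, at 101 CPM against at most 0.227 CPM. It was also the WT library with the most Cdx1 and Cdx2. Without it the slope per copy was -1.94 for Cdx2 (exact permutation p = 0.00536) and -0.68 for Cdx1 (p = 0.0232). All lines had 39.1 to 120 CPM of Ddx3y. The WT group was thus mixed for this Y-chromosome gene, which was at or near 0 in all HET and HOM libraries. The part of that difference in the Cdx1 and Cdx2 values was not tested.

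Hnf4a, whose product is overexpressed in all 9 libraries, stood at 320, 443 and 513 CPM in WT, 422, 276 and 342 in HET and 356, 374 and 336 in HOM. The groups overlapped, and HOM differed from WT by -0.26 on the log2 scale.

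The balance of reads between the 2 genes was described as Cdx1 reads per 100 Cdx2 reads within a library, a ratio that library size cannot move. It was 11.9, 3.10 and 3.56 in CDX2 lines, 4.59, 21.4 and 1.20 in HNF4A lines, and 27.8 and 63.8 in small intestine. Small intestine lay above all gastric lines, and line-to-line spread was wide within both transduced groups. In CDX2 lines the Cdx2 reads may include those of the vector.

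In WT the ratio was 8.60, 19.3 and 18.7, in HET 14.8, 33.8 and 25.6, and in HOM 500, 35.7 and 60.0. HOM lay above all other libraries of its experiment, though HOM replicate 2 (35.7) stood close to HET replicate 2 (33.8). Summed over each group, 145 Cdx1 reads stood beside 869 Cdx2 reads in WT, 69 beside 323 in HET and 18 beside 21 in HOM. Cdx1 made up 83.3% of the reads of both genes in HOM replicate 1 (exact Clopper-Pearson 95% interval 51.6 to 97.9%), 26.3% in HOM replicate 2 (9.15 to 51.2%) and 37.5% in HOM replicate 3 (8.52 to 75.5%). In WT replicate 3, the WT library with the most reads of both genes, it made up 15.8% (12.8 to 19.1%). In HET replicate 2 it made up 25.3% (16.6 to 35.7%). Both intervals lie within those of HOM replicates 2 and 3 and below that of HOM replicate 1.

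**Figure D3:**
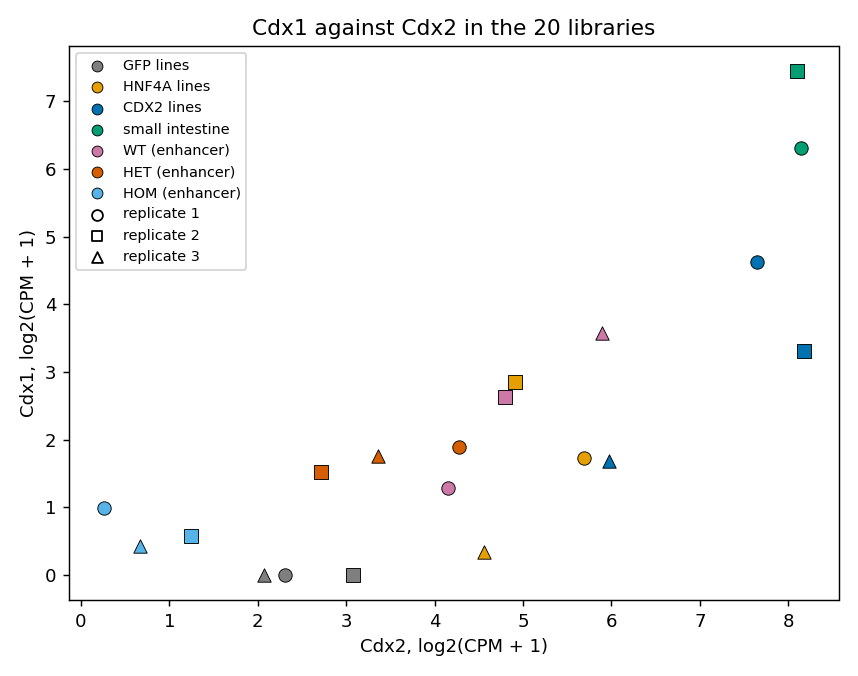
Cdx1 against Cdx2 in the 20 libraries, both as log2(CPM + 1), coloured by group and shaped by replicate number. GFP lines lie on the axis of 0 Cdx1 at a Cdx2 level above that of the HOM libraries, which do have Cdx1 reads, and small intestine lies at the upper right.

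The plot of the 2 genes shows a crossing of order between experiments that were normalised apart. GFP lines had 26 to 70 reads of Cdx2 and 0 of Cdx1, and HOM libraries had 2 to 14 reads of Cdx2 and 3 to 10 of Cdx1. The HOM organoids overexpress HNF4A and the GFP lines do not, and other differences between the experiments cannot be told apart from this.

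The other ParaHox genes were described beside the members. Cdx4 had 1 read in all, in a HET library, and Gsx1 and Gsx2 had 0 reads in all 20 libraries. Pdx1, a factor of antrum, duodenum and pancreas and a neighbour of Cdx2, stood at 40.5, 35.4 and 36.6 CPM in GFP lines and 44.6, 33.7 and 33.9 CPM in CDX2 lines, which overlapped. In small intestine it stood at 6.33 and 21 CPM and was lower than in GFP lines by -1.46 ± 0.43 on the log2 scale (edgeR adjusted p = 0.0325). In the enhancer experiment Pdx1 was 38.7, 46.1 and 61.1 CPM in WT, 37.1, 27.9 and 22.9 in HET and 44.7, 38.9 and 27.0 in HOM. HOM differed from WT by -0.40 and overlapped it, while Cdx2 close by differed by -5.53.

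The neighbours of Cdx1 were read as well. Cdx1 lies on chromosome 18 at 61018862 to 61036199 (GRCm38.p6), between Slc6a7 at 60995376 to 61014416 and Pdgfrb at 61045127 to 61085067. Slc6a7, a proline transporter, had 0 reads in all GFP lines, 17, 6 and 5 reads in CDX2 lines, 49, 46 and 5 in HNF4A lines and 26 and 57 in small intestine. Neither the CDX2 lines (edgeR adjusted p = 0.146) nor the HNF4A lines (0.102) passed the threshold against GFP lines. In the enhancer experiment Slc6a7 had 0.360, 1.32 and 3.31 CPM in WT, 2.62, 0.427 and 1.02 in HET and 0.398, 0.390 and 1.05 in HOM, which overlapped. Pdgfrb, on the other side of Cdx1, is on the fibroblast list. It had 0, 0 and 1 reads in WT, 18, 200 and 297 in HET and 14, 15 and 255 in HOM. HOM replicate 3 and HET replicates 2 and 3 carried most of these reads, and they are the libraries with the highest fibroblast sums.

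Among 10 partner factors of the gut endoderm (Hnf4a, Hnf4g, Gata4, Gata6, Foxa1, Foxa2, Foxa3, Sox9, Sox2 and Klf5), 0 of 10 passed edgeR in CDX2 against GFP lines, where 0.409% of all genes were called. Their median log2 fold change was -0.58 beside 0.00 for all genes. DESeq2 called 1 higher and 2 lower, where it called 2.74% of all genes higher and 1.14% lower. Foxa2, a forkhead factor, differed by -1.13 ± 0.34 (adjusted p = 0.205, and 0.0333 with the block). None of the 10 passed in HNF4A against GFP lines (median -0.04) or in HOM against WT (median -0.17).

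In small intestine against GFP lines, 2 of the 10 partners rose (Hnf4a and Hnf4g) and 3 fell (Foxa2, Sox9 and Sox2). The shares of all genes were 14.2% higher and 12.9% lower. Sox2, a factor of the stomach epithelium, had 0 reads in both small intestine libraries. It was at least 351-fold lower there than in CDX2 lines (161-fold without small intestine library 1 and 189.9-fold without library 2, with fewer reads behind the floor), a comparison with 5.67% of genes called lower.

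A list of 21 intestinal genes generally known as CDX-dependent was read beside the members. In CDX2 against GFP lines, 6 of 20 tested genes rose and 0 fell, beside 0.338% of all genes called higher. The median log2 fold change was 3.42 beside 0.00 for all genes. Genes with few or no reads in GFP lines, Isx and Gucy2c among them, could hardly fall there. The list was also chosen with earlier results known, so its count and median describe it and test nothing. Isx, an intestinal homeobox gene, had 104, 71.6 and 30.3 CPM in CDX2 lines and 0 reads in GFP lines, at least 664-fold (edgeR adjusted p = 0.00611), or 433- and 432-fold without GFP line 1 or 2. Cdh17, the intestinal cadherin, had 861, 347 and 202 CPM against 1.71, 3.61 and 4.41, a rise of 7.18 ± 0.79 (0.00625). Gucy2c, the receptor of guanylin, had 117, 38.1 and 43.5 CPM against 0, 0.213 and 0.

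The other risers were Cdhr5, a cadherin of microvilli (8.43 ± 1.24), Heph, a ferroxidase of iron export (7.65 ± 1.08), and Slc5a1, the sodium-glucose transporter (3.43 ± 0.58). Every one of the 6 had its highest CDX2-line value in line 1, which also had the most Cdx1, and not in line 2, which had the most Cdx2. Line 1 also had the highest Hnf4a of the CDX2 lines (441 CPM) and the highest epithelium sum (16585 CPM against 12746 and 9308). It had the highest squamous sum as well (722 CPM against 232 and 67.4, mostly Krt4). That order was noticed after the values were seen, and the part of these markers in it was not tested. Vil1 (0.32 ± 0.17), Klf4 (0.93 ± 0.46) and Cftr (0.82 ± 0.57) were among the 14 that did not pass.

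In HNF4A against GFP lines, a comparison that shares its controls with the one before, 2 of 20 rose, beside 0.142% of all genes: Cdh17 by 5.00 ± 0.73 (edgeR adjusted p = 0.0368) and Gucy2c. With 2 reads of Gucy2c in the GFP group, its ratio was 478 (95% counting interval 132 to 3951; adjusted p = 0.00233). The list's median was 3.12, and DESeq2 called 11 genes (1.55% of all genes called higher) and the blocked fit 6 (0.723%). The limits given for CDX2 against GFP lines, on direction and on the choice of the list, hold here too. None passed between CDX2 and HNF4A lines (0 of 20, median 0.64). There Isx differed by 4.29 ± 0.57, which passed with the block (adjusted p = 0.0047) and not without (0.161).

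In small intestine against CDX2 lines 2 of 20 rose, Slc5a1 by 2.29 (edgeR adjusted p = 0.0316) and Cldn2, a claudin, by 1.26 (0.0348), beside 5.63% of all genes called higher. The list's median was 0.89. Against HNF4A lines 7 of 20 rose, with a median of 1.94, beside 5.83% of all genes.

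In HOM against WT, 0 of 16 tested genes of the list passed edgeR, and all 16 had a negative log2 fold change, with a median of -0.92 beside 0.00 for all genes. The epithelium list was negative in 8 of 8 genes, with a median of -0.44, and the fibroblast list was positive in 7 of 7 tested, of 12 in all. With a sum of 3.31 to 6.74 CPM in WT, the fibroblast genes could hardly fall, so that count tests nothing. The part of the epithelium and fibroblast lists in the values of the intestinal list was not tested. With the list chosen after earlier results were known, its count and median again only describe it. DESeq2 called 5 intestinal genes lower, beside 0.254% of all genes. Cdhr5 had 22.0, 36.2 and 50.8 CPM in WT, 17.8, 17.4 and 22.1 in HET and 4.18, 9.35 and 6.20 in HOM (HOM against WT -2.46 ± 0.37, DESeq2 adjusted p = 1.83e-06). Gucy2c had 15.7, 33.8 and 67.4 CPM in WT, 19.2, 15.4 and 19.9 in HET and 7.27, 8.87 and 6.44 in HOM (-2.37 ± 0.46, 0.000409). For both, all HOM libraries lay below all WT and HET libraries, which held for 0.286% of tested genes.

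Cdh17 (-2.31 ± 0.47), Slc5a1 (-3.29 ± 0.77) and Heph (-2.85 ± 0.95) were the others called by DESeq2. Isx had 0.540, 4.57 and 11.1 CPM in WT, 3.77, 0.171 and 0.227 in HET and 0.498, 0 and 1.05 in HOM, and these overlapped. Sis, sucrase-isomaltase, had 4, 8 and 20 reads in WT, 0, 7 and 7 in HET and 0 in each HOM library, and was below the filter and not tested. In HET against WT none of 16 passed with edgeR or DESeq2, 15 were negative and the median was -0.87, beside 8 of 8 negative and a median of -0.52 for the epithelium list. In HOM against HET, 12 were negative and the median was -0.19. The HOM and HET comparisons with WT share the WT libraries.

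**Figure D4:**
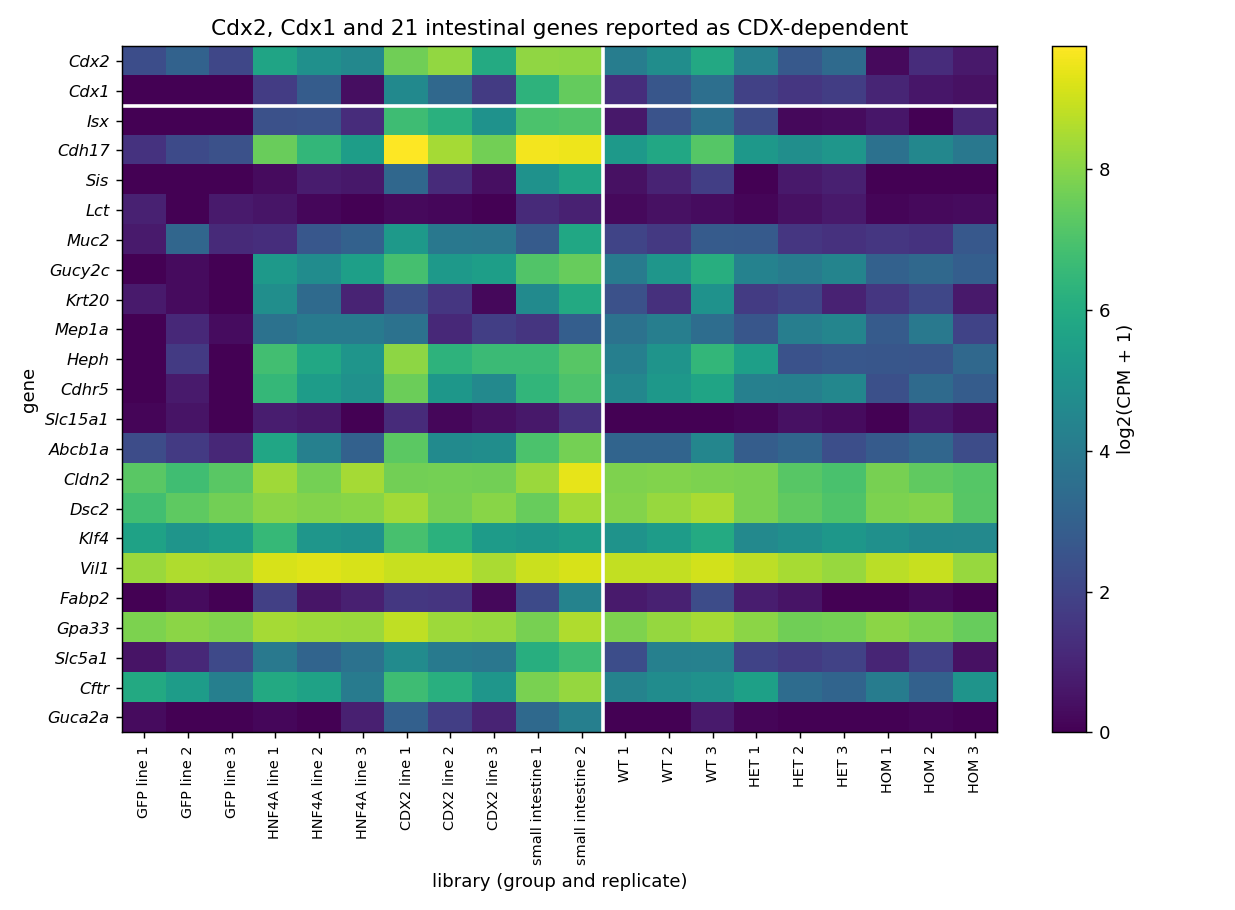
Levels of Cdx2, Cdx1 and the 21 intestinal genes in each of the 20 libraries as log2(CPM + 1), from dark (0) to yellow; the white lines part the members from the list and the lines from the enhancer experiment. GFP lines are at or near 0 for Cdx1, Isx, Gucy2c and Cdhr5, and HOM libraries are dark for Cdx2 and Cdx1 while Vil1, Gpa33, Dsc2 and Cldn2 stay bright in all libraries.

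Genes whose pattern was most like a member's were found by the root mean square difference of log2(CPM + 1) after subtracting each gene's mean, over the libraries of an experiment. Over the 11 lines the nearest to Cdx2 were Ugt1a7c (0.64), Tff3 (0.66), Abi3 (0.73), Plcl2 (0.77) and Fcgbp (0.79). Ugt1a7c averaged 0.554 CPM in GFP lines, 10.4 in HNF4A lines, 45.5 in CDX2 lines and 87.1 in small intestine. The nearest to Cdx1 were Gpr128 (0.69), Ush1c (0.76), Sis (0.86), Myrfl (0.99) and Slc30a10 (0.99). Cdx1 came 51st of 12719 genes in likeness to Cdx2, and Cdx2 came 26th in likeness to Cdx1, at a difference of 1.23 either way.

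Over the 9 enhancer libraries the nearest to Cdx2 included Lgals2 (0.83), Cdhr5 (0.91), Myo7b (0.92) and B4galnt2 (0.96). Lgals2 averaged 98.3 CPM in WT, 26.4 in HET and 11 in HOM. The nearest to Cdx1 were Gucy2c (0.20), Cdh17 (0.38), Btnl4 (0.39), Spink4 (0.42) and Zbtb7c (0.43). Cdx1 came 13th of 12592 in likeness to Cdx2. Cdx2 came 10304th in likeness to Cdx1, since the measure compares amplitudes too and Cdx2 spanned more of the log2 scale (SD 1.85) than Cdx1 did (0.94).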

How the data were processed

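RNA was TRIzol-extracted, poly-A selected and sequenced as paired reads, per the labels' protocols. The authors deposited raw counts of reads per gene symbol. Per the submitters' processing notes, STAR and mm10 were used for the enhancer libraries, and STAR, Bowtie2, Cell Ranger, hg19 and mm10 are named without roles for the others. The counting program, its annotation and its strand setting are not given in the sources used. Each experiment was fitted with edgeR 4.0.16 in R 4.3.3 (robust quasi-likelihood F test, two-sided, TMM; filterByExpr, minimum count 10, minimum total 15), with Benjamini-Hochberg adjustment over all tested genes and a threshold of 0.05. SE is the log2 fold change over the root of F. Alternatives were DESeq2 1.42.0, limma-voom 3.58.1, other scalings, a replicate block and left-out libraries. Against a group at 0 reads, folds are bounds against 3 reads over the group. With 1 to 3 reads, ratios carry an exact 95% counting interval. Floors and intervals cover counting error only, since reads carry no molecular identifiers. The chromatin samples (ATAC-seq, ChIP-seq, CUT&RUN) were not used here. The members and lists were chosen with earlier results of these data known. Named genes are the members, fixed lists with their called genes, and the 5 genes nearest each member, apart from a few items that are not reported here. Tested on simulated data for CDX2 against GFP lines (12511 genes), edgeR called 71.4% of genes changed 4-fold and 89.8% of genes changed 32-fold. For HOM against WT (12415 genes) it called 81.3% and 96.0%. Of unchanged genes it called 12 and 11 in these comparisons. The simulated libraries were independent draws around each gene's mean over all libraries. They held no line pairing and no libraries high in fibroblast markers. These shares therefore do not give the power of the real fits, and edgeR called no gene in the real HOM against WT comparison. Same-numbered libraries were taken as paired where every pair's deviations correlated over 0.1. In CDX2, HNF4A and GFP lines they did (0.363 to 0.785), and in HET with HOM (0.246 to 0.517), but not with small intestine (-0.144 to 0.121) or WT (-0.336 to 0.264).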

Additional observations from a re-analysis of the deposited data

How the results depend on the processing

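No Cdx1 or Cdx2 value changed sign under any alternative run, while 351 alternative values kept their side of the threshold, 23 newly passed it and 11 no longer did. With DESeq2, 9 results passed that did not with edgeR, as log2 fold changes: Cdx1 in CDX2 against GFP lines (9.14) and HNF4A against GFP lines (7.15), Cdx2 in HNF4A against GFP (2.80) and CDX2 against HNF4A lines (2.42), Cdx2 and Cdx1 in HOM against WT (-5.55 and -3.24), Cdx2 in HOM against HET (-3.94), and the trends of Cdx2 (-2.71) and Cdx1 (-1.60). With limma-voom, Cdx2 in CDX2 against GFP lines no longer passed (5.03), and Cdx1 in small intestine against CDX2 lines did (3.68). Fitting only the groups compared, Cdx2 in CDX2 against GFP lines no longer passed (5.23, adjusted p = 0.0564). Epithelium scaling, which moved the median of all genes by -0.62 to 0.62, brought Cdx2 past the threshold in HNF4A against GFP lines (2.33) and HOM against WT (-4.98). With the replicate block over all lines, Cdx1 in CDX2 against GFP lines (9.84), Cdx2 in HNF4A against GFP lines (2.86) and Cdx1 in small intestine against CDX2 lines (2.76) passed. Small intestine libraries did not pair with gastric lines by number, so the last call rests on a block that does not describe them. In the block over the gastric lines, chosen after seeing the data, Cdx1 in CDX2 against GFP lines was 9.72 and Cdx2 in HNF4A against GFP lines 2.87. Cdx2 in CDX2 against HNF4A lines passed there (2.24). The Cdx1 values of 9.14, 7.15, 9.84 and 9.72 are against GFP lines at 0 reads, and their size depends on how each tool handles zeros. Only the bounds of at least 118-fold in CDX2 lines and 27.9-fold in HNF4A lines describe those differences. The block changed no other call of the members. It moved the genes called in CDX2 against GFP lines from 52 to 578, in HNF4A against GFP lines from 18 to 100 and in CDX2 against HNF4A lines from 3 to 28. Without the 3 libraries highest in the fibroblast list, DESeq2 gave Cdx2 -5.43 in HOM against WT, -4.56 in HOM against HET and -2.56 per copy, all past the threshold.

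With 1 library left out, Cdx2 ranged from 4.75 to 5.67 in CDX2 against GFP lines, from 2.40 to 3.25 in HNF4A against GFP lines and from 2.80 to 3.42 in small intestine against HNF4A lines. Cdx1 ranged from 4.71 to 6.55 in small intestine against HNF4A lines and from 2.74 to 4.47 in small intestine against CDX2 lines. In HOM against WT, Cdx2 ranged from -6.42 to -4.89 and Cdx1 from -3.75 to -2.40. In HET against WT they ranged from -2.18 to -0.98 and from -1.79 to -0.51, and in HOM against HET from -4.79 to -3.34 and from -2.41 to -1.61. None of these edgeR values of the enhancer experiment passed the threshold with any single library left out. Cdx2 in HNF4A against GFP lines passed without CDX2 line 3 (adjusted p = 0.0346), as did Cdx1 in small intestine against CDX2 lines without HNF4A line 3 (0.0482). With 2 to 14 reads of either gene in each HOM library, depth limits those levels to a few reads. A lone remaining library was assumed to vary like the other groups.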
